A study of Mus musculus with 18 samples.

Results

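The 10 genes described here encode the calcium-regulated kinase CaMKII, the phosphatase calcineurin, the calcineurin regulator RCAN1 and NFAT transcription factors. They were taken by name from the count and FPKM tables of 18 mouse hearts, as 10 of the 23457 genes in the count table. All 10 were found in both tables and all 10 passed the filter on low counts that left 12281 genes for testing. The study asked whether weakened contraction without hypertrophy is followed by a compensating change in transcripts. It used hearts that express PLCβ1b, the splice variant of phospholipase Cβ1 that acts in the heart. The paper reports a lower ejection fraction in these hearts than in its control groups, and no detectable hypertrophy. Male C57BL/6 mice received, at 8 weeks of age, a tail vein injection of an adeno-associated vector. One group received rAAV6-FLAG-PLCβ1b, another rAAV6-FLAG-PLCβ1a and the last rAAV6-blank, and hearts were taken 9 weeks later, at 17 weeks. PLCβ1a is the splice variant without activity in the heart, and rAAV6-blank carries the promoter but makes no protein. Each group had 6 hearts, each from its own mouse and named by the mouse number. The methods describe left ventricle and the labels both ventricles.

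CaMKII is opened by calcium-bound calmodulin and phosphorylates ion channels, calcium handling proteins and class II histone deacetylases in heart muscle. Calcineurin is a phosphatase of a catalytic A and a regulatory B subunit, also driven by calmodulin. It removes phosphates from NFATc factors, which then enter the nucleus and take part in hypertrophic gene expression. RCAN1 binds calcineurin and restrains it, and one of its transcripts is itself a classic NFAT target. NFAT5 carries the same kind of DNA-binding domain, but answers to osmotic stress rather than to calcineurin.

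Total counts per heart ranged from 13246339 to 24155465. Of these, 53.5 to 57.5% fell on the mitochondrial ribosomal RNA mt-Rnr2, and 3908354 to 7591558 were from nuclear genes. Plcb1, which the vectors carry, served as a check of the labels. Its level, as counts scaled to the library by TMM and given as CPM, was 5.43 to 6.89 with a median of 6.22 in blank hearts, 17.8 to 29.3 with a median of 21.99 in PLCβ1a hearts and 23.2 to 70.0 with a median of 46.2 in PLCβ1b hearts. Every heart of both PLC groups lay above every blank heart. By edgeR's quasi-likelihood test the log2 fold changes were 2.90 ± 0.25 (SE, FDR = 8.2e-05) and 1.82 ± 0.26 (SE, FDR = 0.0299) for PLCβ1b and PLCβ1a. Gene counts do not separate the splice variants. All 6 cardiomyocyte markers were at 1 FPKM or more, and their sum ranged from 13410 to 15760 in blank hearts, 13103 to 14746 in those with PLCβ1a and 13102 to 14499 in those with PLCβ1b. The summed levels of the other 7 marker lists also overlapped between groups. Single genes were less even. All 5 fibroblast markers were higher in both PLC groups than in blank, 2 in each at an unadjusted p under 0.05 by edgeR, against 7.41% and 8.58% of all genes. All 3 tested leukocyte markers were also higher in both. In PLCβ1b and PLCβ1a hearts, 4 and 3 of 4 smooth muscle and 4 and 3 of 5 endothelial markers were higher. At the same p, 1 endothelial marker was higher and 1 of 6 cardiomyocyte markers lower in each. The 4 tested atrial markers were all lower in PLCβ1b hearts, 1 without overlap in CPM, against 0.48% of all genes, and 3 were higher in PLCβ1a hearts. None was called at an FDR below 0.1.

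Rcan1 has 2 start sites, and the regions before them are shown because they differ in the short core that NFAT factors bind. The gene lies on the minus strand of chromosome 16 (mm10, 92391953 to 92466146). Each sequence is the 250 bases upstream of a RefSeq start (GRCm38.p6), written 5′ to 3′ on the gene's strand. Capitals mark the core GGAAA or its reverse complement TTTCC. The first, chr16:92400079-92400328 on the minus strand, precedes the internal start, and the second, chr16:92466170-92466419 on the minus strand, the distal start.
Rcan1 internal start: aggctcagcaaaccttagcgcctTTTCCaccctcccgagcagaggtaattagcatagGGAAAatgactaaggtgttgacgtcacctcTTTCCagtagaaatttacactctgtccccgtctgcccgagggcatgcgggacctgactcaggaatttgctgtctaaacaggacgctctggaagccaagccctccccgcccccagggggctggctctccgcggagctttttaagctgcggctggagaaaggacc
Rcan1 distal start: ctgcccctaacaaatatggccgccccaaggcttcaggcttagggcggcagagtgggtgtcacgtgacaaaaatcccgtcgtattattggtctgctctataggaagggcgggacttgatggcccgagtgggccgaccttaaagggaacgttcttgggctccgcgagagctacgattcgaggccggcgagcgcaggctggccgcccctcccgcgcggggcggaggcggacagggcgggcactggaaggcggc
The internal region held 3 cores, 1 of GGAAA and 2 of TTTCC, and the distal region held 0. Among 32851 RefSeq regions of the same length, 55.6% held at least 1 core, 21.4% at least 2 and 6.39% at least 3. The same search found 3 cores before Nfatc4 and Ppp3cb, 2 before Nfat5, 1 before Camk2d, 1 and 0 before the 2 starts of Nfatc3, and 0 before Camk2b. A match of these letters is a description and not a binding site, and the gene counts used here do not separate the 2 starts of Rcan1.

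Levels were compared between genes in FPKM, the deposited values per kilobase of transcript. Camk2d, the predominant cardiac CaMKII gene, had the highest level at 22.5 ± 1.14 FPKM (SD, n = 18 hearts). Rcan1 followed at 12.7 ± 3.51 FPKM and the calcineurin catalytic subunit Ppp3ca at 11.7 ± 0.490 FPKM (SD, n = 18 each). Rcan1 exceeded Ppp3ca in only 9 of 18 hearts, so the order of these neighbours was not settled. Ppp3cb, the other calcineurin catalytic gene described, was at 8.96 ± 0.683 FPKM and Camk2g at 6.96 ± 0.567 FPKM. Nfatc3 was the highest NFATc member at 3.56 ± 0.248 FPKM. Camk2a, a CaMKII gene best known from neurons, stood at 2.86 ± 0.330 FPKM and Nfat5 at 2.74 ± 0.225 FPKM, and Camk2a was the higher of the pair in 12 of 18 hearts. Camk2b, at 1.06 ± 0.195 FPKM, and Nfatc4, at 0.500 ± 0.129 FPKM, closed the order. Camk2d exceeded Rcan1 in 17 of 18 hearts, and all other neighbours kept their order in 18 of 18. Counts divided by the length of merged exons put Ppp3ca before Rcan1 and Nfat5 before Camk2a, so both of these pairs depended on the scale.

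**Figure D1:**
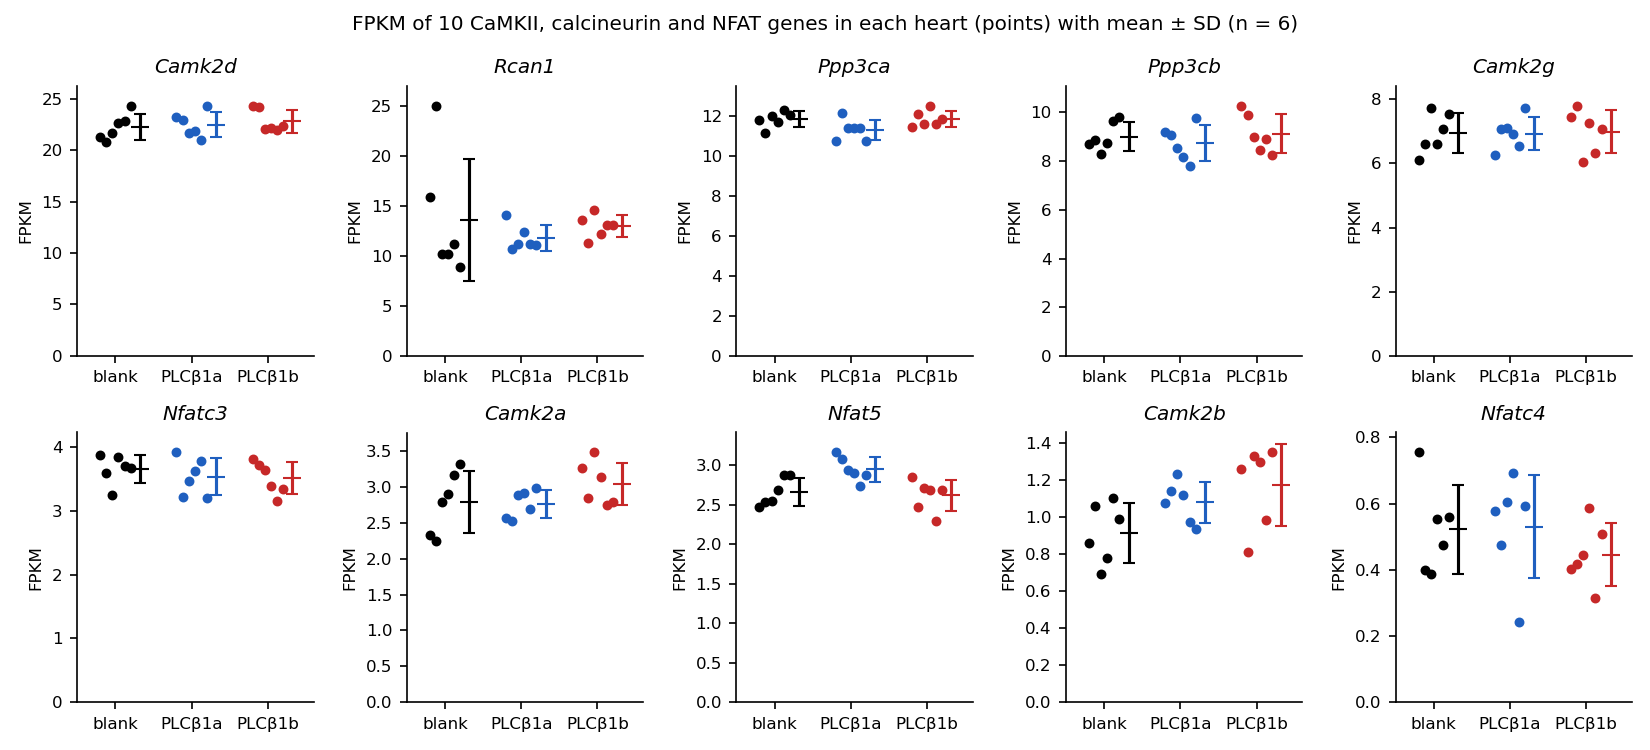
FPKM of the 10 genes (one panel each, vertical axis from 0) in the blank (black), PLCβ1a (blue) and PLCβ1b (red) hearts, with points for hearts and bars for mean ± SD (n = 6). The groups overlap in all 10 panels, and the widest spread is that of Rcan1 in blank hearts, from 8.89 to 24.95 FPKM.

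No gene of the 10 was called in any comparison at an FDR below 0.1 by edgeR's quasi-likelihood test. The background was 12 of 12281 genes, or 0.0977%, called between PLCβ1b and blank, 17 genes or 0.138% between PLCβ1a and blank, and 0 genes or 0% between PLCβ1b and PLCβ1a. At an unadjusted p under 0.05, 1 of the 10 passed in each comparison by this test, against 7.41%, 8.58% and 4.42% of all genes. DESeq2 and edgeR's exact test each called 1 of the 10, Nfat5 for PLCβ1a against blank, and limma none. The genes at an unadjusted p under 0.05 were Camk2b for PLCβ1b against blank and Nfat5 for the other pair of comparisons. The median absolute log2 fold change of the 10 genes was 0.045 for PLCβ1b and 0.025 for PLCβ1a against blank, where that of all genes was 0.071 and 0.073. Between PLCβ1b and PLCβ1a it was 0.077, against 0.061 for all genes. Both PLC groups were compared with the same 6 blank hearts. In whole tissue, a lower level cannot distinguish fewer cells of a type from less RNA per cell.

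**Figure D2:**
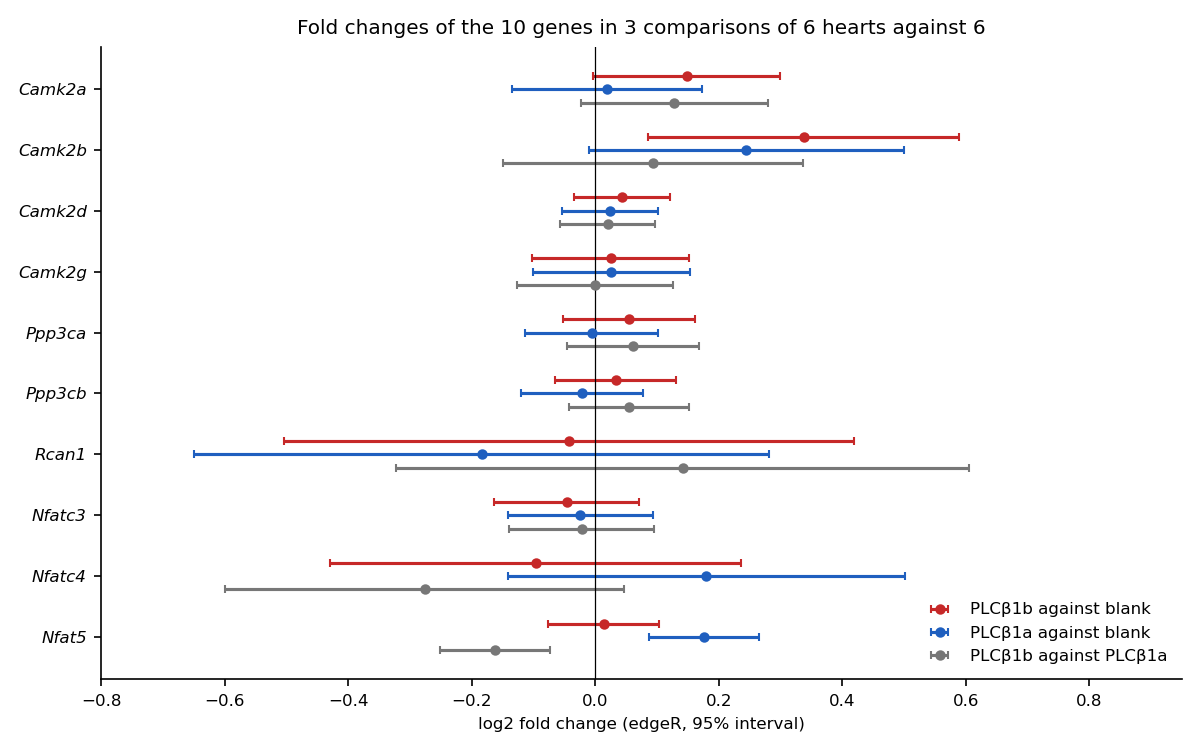
Log2 fold changes (horizontal axis, edgeR fit) of the 10 genes for PLCβ1b against blank (red), PLCβ1a against blank (blue) and PLCβ1b against PLCβ1a (grey), with bars for 95% intervals (6 hearts in each group). Intervals are narrowest for Camk2d and Nfat5 and widest for Rcan1, and those that do not cross 0 are Nfat5 for both comparisons with PLCβ1a hearts and Camk2b for PLCβ1b against blank.

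Camk2d (mm10 as for all positions here, chromosome 3, 126596973 to 126845054, plus strand) varied little. Its level was 79.1 to 86.3 CPM with a median of 82.1 in blank hearts, 79.2 to 86.3 with a median of 84.1 in PLCβ1a hearts and 78.6 to 89.4 with a median of 85.6 in PLCβ1b hearts. The 3 groups overlapped almost fully. The log2 fold change was 0.043 (95% interval -0.034 to 0.12, FDR = 0.848 by edgeR) for PLCβ1b and 0.024 (-0.054 to 0.10, FDR = 0.908) for PLCβ1a against blank. The upper ends of these intervals correspond to 1.09-fold and 1.07-fold. Camk2g (chromosome 14, 20734875 to 20794088, minus strand), the second cardiac CaMKII gene by level, ranged from 20.6 to 24.7 CPM in blank hearts, 19.5 to 24.2 in those with PLCβ1a and 19.1 to 24.7 in those with PLCβ1b. The log2 fold changes of Camk2g were 0.025 (-0.10 to 0.15) and 0.026 (-0.10 to 0.15) for PLCβ1b and PLCβ1a against blank.

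Camk2b (chromosome 11, 5969666 to 6065748, minus strand) encodes the β isoform and was low throughout, with 36 to 96 counts in a heart. It was at 2.56 to 3.87 CPM with a median of 3.23 in blank hearts, 3.18 to 4.598 with a median of 3.78 in PLCβ1a hearts and 2.87 to 4.84 with a median of 4.33 in PLCβ1b hearts. Of the PLCβ1b hearts, 4 of 6 lay above every blank heart, and PLCβ1b hearts 6 and 16 lay within the blank range. The log2 fold change for PLCβ1b was 0.34 ± 0.12 (SE, 95% interval 0.086 to 0.59), with an unadjusted p of 0.01002 and an FDR of 0.521 by edgeR, so it did not pass. The two-sided exact permutation test of PLCβ1b against blank gave p = 0.0476 on CPM and p = 0.0541 on FPKM, both unadjusted. The two-sided exact permutation test of PLCβ1a against blank gave p = 0.0476 on CPM and p = 0.0714 on FPKM, both unadjusted. On CPM this test thus did not set PLCβ1b apart from PLCβ1a. For PLCβ1a the log2 fold change was 0.24 (-0.010 to 0.50, FDR = 0.607 by edgeR), and PLCβ1b differed from PLCβ1a by 0.093 (-0.15 to 0.34). Camk2a (chromosome 18, 60925632 to 60988152, plus strand) ranged from 8.48 to 11.6 CPM with a median of 10.4 in blank hearts, 9.24 to 11.03 with a median of 10.7 in PLCβ1a hearts and 10.3 to 12.4 with a median of 11.1 in PLCβ1b hearts. For Camk2a the log2 fold change was 0.15 (-0.0045 to 0.30, FDR = 0.686 by edgeR) for PLCβ1b and 0.020 (-0.13 to 0.17) for PLCβ1a. Camk2a and Camk2b are best known from brain, so neuron and nerve markers were examined. Of 7 such markers 1 reached 1 FPKM, Snap25 and Th had 0 counts in all 18 hearts, and the summed level was 1.89 to 2.74 FPKM in blank hearts, 1.45 to 2.79 in those with PLCβ1a and 1.90 to 2.56 in those with PLCβ1b.

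Within the CaMKII family, Camk2d made up 67.4 ± 1.25% of the summed FPKM (SD, n = 18), Camk2g 20.8 ± 1.15%, Camk2a 8.56 ± 0.789% and Camk2b 3.17 ± 0.583%. The share of Camk2d was 67.7 ± 1.32% in blank hearts, 67.6 ± 1.44% in those with PLCβ1a and 67.1 ± 1.09% in those with PLCβ1b (SD, n = 6 each). These group means lay closer together than 1 SD.

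The calcineurin catalytic genes also varied little. Ppp3ca (chromosome 3, 136670770 to 136935779, plus strand) encodes the α form of calcineurin A and ranged from 20.5 to 21.9 CPM with a median of 20.9 in blank hearts, 19.1 to 23.2 with a median of 20.9 in PLCβ1a hearts and 20.9 to 23.8 with a median of 21.8 in PLCβ1b hearts. For Ppp3ca the log2 fold change was 0.055 (-0.052 to 0.16, FDR = 0.856 by edgeR) for PLCβ1b and -0.0059 (-0.11 to 0.10) for PLCβ1a. Ppp3cb (chromosome 14, 20499314 to 20546573, minus strand) encodes the β form. It ranged from 29.7 to 33.5 CPM with a median of 32.5 in blank hearts, 28.8 to 33.8 with a median of 31.5 in PLCβ1a hearts and 30.6 to 35.2 with a median of 32.3 in PLCβ1b hearts. Ppp3cb had a log2 fold change of 0.033 (-0.065 to 0.13, FDR = 0.916 by edgeR) for PLCβ1b and -0.021 (-0.12 to 0.077) for PLCβ1a. The 1810062O18Rik gene overlaps Ppp3cb on the opposite strand, and the authors' counting used strand. Ppp3ca made up 42.7 ± 2.01%, Ppp3cb 32.7 ± 1.54% and Ppp3cc, the remaining catalytic gene, 24.6 ± 1.33% of calcineurin A FPKM (SD, n = 18). The regulatory B subunit gene Ppp3r1 was at 13.4 ± 0.776 FPKM in blank hearts (SD, n = 6), and its log2 fold change was 0.046 for PLCβ1b (FDR = 0.870 by edgeR) and -0.054 for PLCβ1a (FDR = 0.798). Ppp3r2, the testis-type B subunit gene, had at most 1 count in a heart.

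Over the 18 hearts Rcan1 was the most variable of the 10 genes. In blank hearts 26, 30, 32, 33, 34 and 36 its level was 29.2, 45.9, 19.2, 17.5, 18.7 and 15.4 CPM. PLCβ1a hearts lay between 19.3 and 24.3 CPM with a median of 21.2, and PLCβ1b hearts between 20.3 and 25.2 CPM with a median of 23.7. Blank hearts 30 and 26 were the highest of all 18, and the other 4 blank hearts were the lowest, so that both PLC groups lay inside the blank range. The coefficient of variation in CPM was 47.7% in blank hearts, 8.70% in those with PLCβ1a and 7.46% in those with PLCβ1b. It became 26.7% without blank heart 30, 5.67% without PLCβ1a heart 7 and 3.79% without PLCβ1b heart 6. Within the PLC groups Rcan1 was not the most variable. Camk2b and Nfatc4 had 12.2% and 14.9% in PLCβ1a hearts and 19.0% and 20.6% in PLCβ1b hearts. These differences in spread were not tested. The biological coefficient of variation from edgeR was 0.198 for Rcan1, higher than for 97.7% of genes tested, where the median was 0.066. The log2 fold change was -0.043 (-0.50 to 0.42, FDR = 0.979 by edgeR) for PLCβ1b and -0.18 (-0.65 to 0.28, FDR = 0.866) for PLCβ1a. Without blank heart 30 these became 0.25 (FDR = 0.708 by edgeR) and 0.11 (FDR = 0.865), and without blank heart 26 the PLCβ1b value became 0.013 (FDR = 0.994). The interval for PLCβ1b spans 0.705-fold to 1.34-fold, so changes of Rcan1 within these limits remain compatible with these hearts.

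The genes whose log2 CPM followed Rcan1 most closely over the 18 hearts, of all genes tested, were Ankrd23, Arntl and Lonrf3. Ankrd23 encodes a stretch-responsive ankyrin repeat protein of muscle and had r = 0.92 and rho = 0.83, with r = 0.83 when the 2 hearts farthest from the median of Rcan1 were left out. Arntl, which encodes the clock factor BMAL1, had r = 0.89 and rho = 0.80, and r = 0.68 without those 2 hearts. Lonrf3 had r = 0.88, rho = 0.74 and r = 0.61. In blank heart 30, the highest in Rcan1, Ankrd23 was at 162 CPM, where the other 17 hearts had 85.6 to 132. Arntl was at 13.3 CPM there and 0.989 to 5.27 in the other 17. These genes were picked as the highest of all correlations, and the points share libraries and scaling, so the values are a description without a test.

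**Figure D3:**
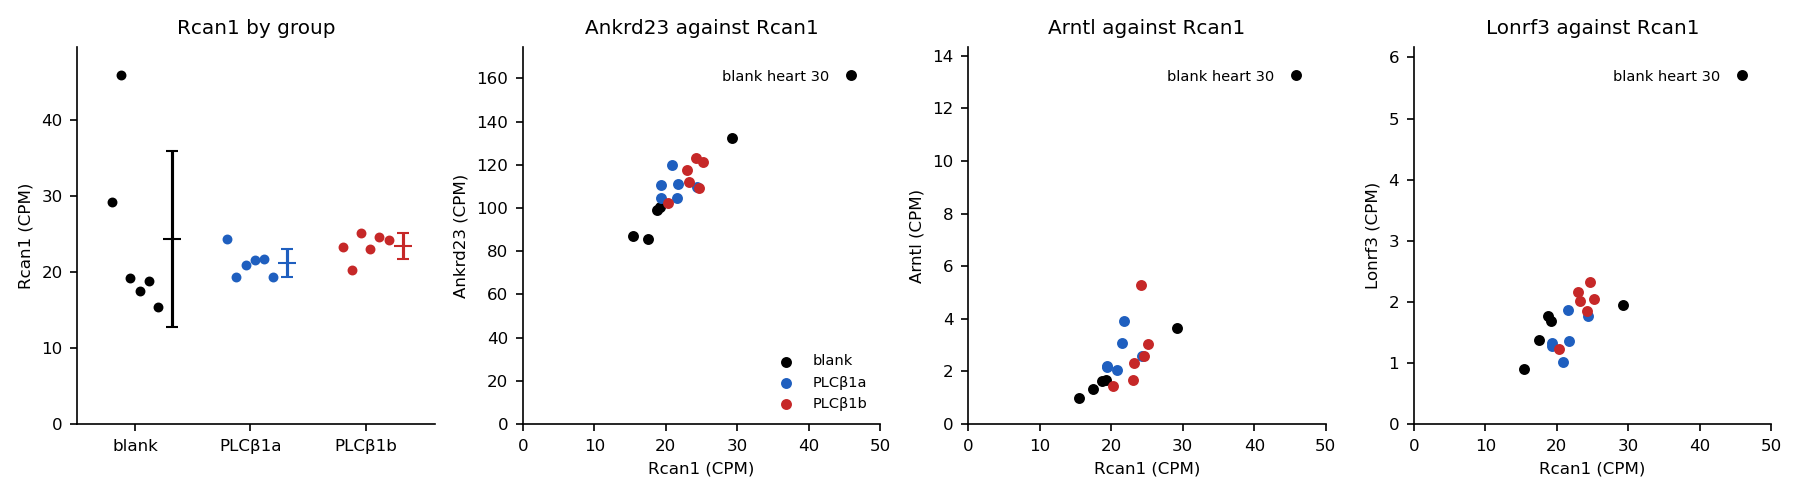
Rcan1 in CPM by group (left, points for hearts, bars for mean ± SD, n = 6) and Ankrd23, Arntl and Lonrf3 in CPM against Rcan1 in CPM for the 18 hearts (blank black, PLCβ1a blue, PLCβ1b red). Blank heart 30 stands highest on every axis, at 45.9 CPM for Rcan1, and the lowest Rcan1 levels are also those of blank hearts.

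Rcan1 was also set against lists of genes with which it might vary. Its correlation with the mean log2 CPM of 6 hypertrophy marker genes was r = 0.40 and rho = 0.43 over 18 hearts (permutation p = 0.0991 and 0.0787, adjusted over 3 relations 0.297 and 0.236). Without the 2 hearts farthest in Rcan1, blank hearts 30 and 36, r was 0.51. Within groups r was 0.61 in blank hearts, -0.13 in those with PLCβ1a and -0.34 in those with PLCβ1b, so the direction was not the same within groups. With the mean of 12 immediate early genes, r was -0.18 and rho -0.077 (permutation p = 0.458 and 0.761, adjusted 0.458 and 0.761). That value became 0.15 without the same 2 hearts and 0.14 without blank heart 30 alone. Within groups it was -0.73, 0.69 and -0.39 in blank, PLCβ1a and PLCβ1b hearts.

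Nfatc3 (chromosome 8, 106059603 to 106130537, plus strand), a calcineurin-dependent NFAT factor, ranged from 17.6 to 20.4 CPM with a median of 18.6 in blank hearts, 16.5 to 21.3 with a median of 18.7 in PLCβ1a hearts and 17.1 to 19.0 with a median of 18.4 in PLCβ1b hearts. The groups overlapped. Nfatc3 had a log2 fold change of -0.046 (-0.16 to 0.071, FDR = 0.899 by edgeR) for PLCβ1b and -0.024 (-0.14 to 0.093) for PLCβ1a. Nfatc4 (chromosome 14, 55824795 to 55833943, plus strand), a second calcineurin-dependent factor, had only 16 to 50 counts in a heart. It ranged from 1.22 to 2.39 CPM with a median of 1.71 in blank hearts, 1.44 to 2.31 with a median of 1.98 in PLCβ1a hearts and 1.19 to 2.23 with a median of 1.61 in PLCβ1b hearts. The log2 fold change of Nfatc4 was -0.097 (-0.43 to 0.24, FDR = 0.928 by edgeR) for PLCβ1b, 0.18 (-0.14 to 0.50, FDR = 0.798) for PLCβ1a, and -0.28 (-0.60 to 0.046, FDR = 0.99994) between PLCβ1b and PLCβ1a. At this depth changes of Nfatc4 inside those intervals remain compatible with the counts.

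Nfat5 (chromosome 8, 107293470 to 107379517, plus strand) was the one gene of the 10 in which groups separated in CPM. Blank hearts lay between 30.9 and 33.9 CPM with a median of 31.98, PLCβ1a hearts between 34.1 and 37.6 with a median of 36.6, and PLCβ1b hearts between 30.1 and 33.99 with a median of 32.7. All 6 PLCβ1a hearts thus lay above all 6 blank and all 6 PLCβ1b hearts, which overlapped with each other. The log2 fold change of PLCβ1a against blank was 0.18 ± 0.044 (SE, 95% interval 0.087 to 0.26), a 1.13-fold difference, with an unadjusted p of 0.00029 and an FDR of 0.157 by edgeR, which did not pass. Between PLCβ1b and PLCβ1a it was -0.16 ± 0.044 (SE, -0.25 to -0.074), with an unadjusted p of 0.00068 and an FDR of 0.801 by edgeR. PLCβ1b differed from blank by 0.013 (-0.076 to 0.10, FDR = 0.964 by edgeR). The exact permutation test on CPM gave p = 0.00216 for PLCβ1a against each other group, unadjusted and the smallest that 6 hearts against 6 can give. That value follows from the separation in CPM itself and is not a second result. Separation without overlap in CPM was found for 0.594% of all genes between PLCβ1a and blank and for 0.179% between PLCβ1b and PLCβ1a. Between PLCβ1b and blank it was found for 0.48% of all genes and for 0 of the 10.

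In FPKM the separation of Nfat5 was not complete. Blank hearts had 2.47 to 2.88, PLCβ1a hearts 2.73 to 3.16 and PLCβ1b hearts 2.29 to 2.85 FPKM. The two-sided exact permutation test on FPKM gave p = 0.0173 for PLCβ1a against blank and p = 0.00433 for PLCβ1b against PLCβ1a, both unadjusted. The FDR of Nfat5 between PLCβ1a and blank was 0.0607 by DESeq2 and 0.0819 by edgeR's exact test, so its side of the threshold rested on the test. Limma on log2(FPKM + 0.1) gave a log2 fold change of 0.14 with an FDR of 0.700. Over all alternatives, single hearts left out included, that FDR ran from 0.0607 to 0.705.

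**Figure D4:**
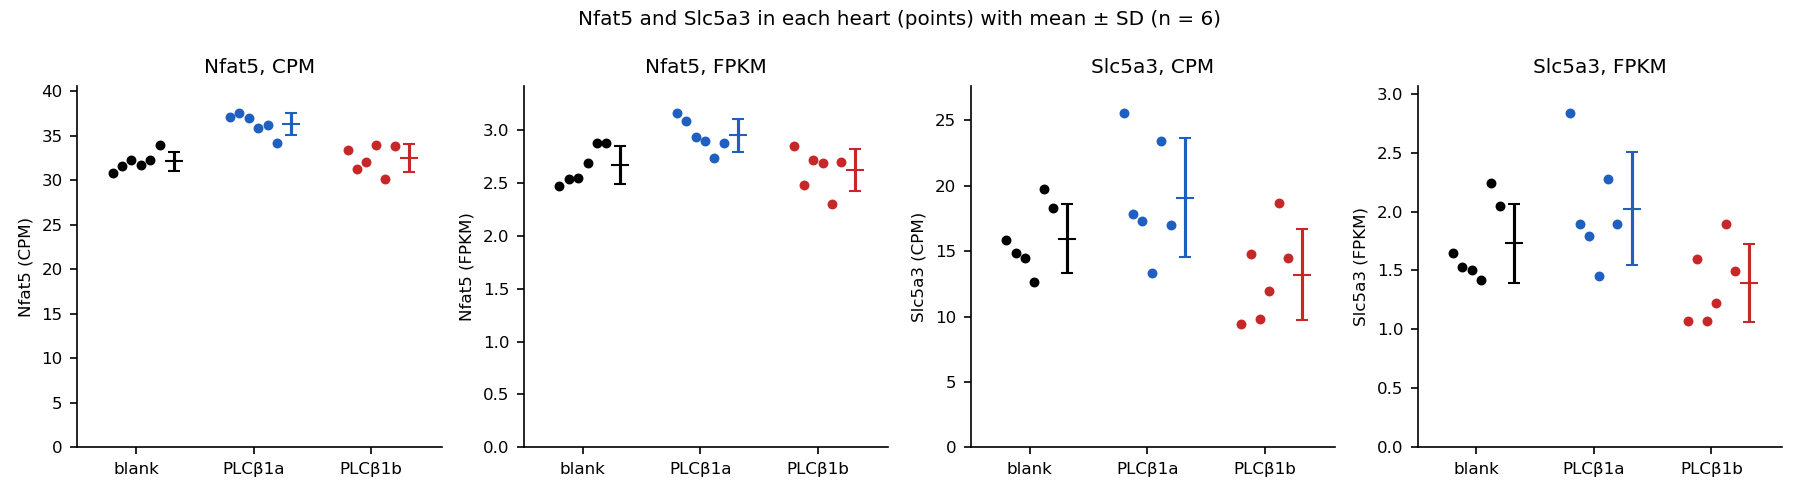
Nfat5 and its osmotic target gene Slc5a3 in CPM and in FPKM (vertical axes from 0) by group, with points for hearts and bars for mean ± SD (n = 6). PLCβ1a hearts lie above all others for Nfat5 in CPM, from 34.1 to 37.6, while the groups overlap for Nfat5 in FPKM and for Slc5a3 in both units.

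As shares of the summed FPKM of the 5 NFAT genes, Nfatc3 made up 34.4 ± 1.95%, Nfat5 26.5 ± 1.63% and Nfatc4 4.81 ± 1.17% (SD, n = 18). Nfatc1 and Nfatc2 made up the rest, at 22.5 ± 2.14% and 11.8 ± 1.40%. The share of Nfat5 was 25.7 ± 1.34% in blank hearts, 28.0 ± 1.32% in those with PLCβ1a and 25.9 ± 1.26% in those with PLCβ1b (SD, n = 6 each). Nfatc2 had the lowest p of the NFAT genes for PLCβ1b against blank, with a log2 fold change of -0.16 ± 0.10 (SE, FDR = 0.781 by edgeR).

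Genes that NFAT5 is known to induce were examined beside it. Of 6 listed osmotic target genes 5 were tested, and 0 were called for PLCβ1b or for PLCβ1a against blank (edgeR), with median log2 fold changes of -0.15 and 0.014. The myo-inositol transporter gene Slc5a3 was at 12.6 to 19.8 CPM with a median of 15.3 in blank hearts, 13.4 to 25.6 with a median of 17.6 in PLCβ1a hearts and 9.46 to 18.7 with a median of 13.2 in PLCβ1b hearts. Its log2 fold change for PLCβ1a was 0.25 ± 0.18 (SE, FDR = 0.755 by edgeR), and 0.13 without PLCβ1a heart 7. Between PLCβ1b and PLCβ1a, a comparison added after its values were seen, it was -0.54 ± 0.19 (SE, unadjusted p = 0.0109, FDR = 0.99994 by edgeR), which did not pass, and the groups overlapped. Of the 5 tested genes, 1 had an unadjusted p under 0.05 in that comparison, against 4.42% of all genes. Their median log2 fold change was -0.11, and 1 of the 5 was positive. The amino acid transporter gene Slc38a2, the highest of the list, had a log2 fold change of -0.15 ± 0.089 (SE, FDR = 0.760 by edgeR) for PLCβ1b, and -0.057 without blank heart 30. Over the 18 hearts the correlation of Nfat5 with the mean log2 CPM of the 5 genes was r = 0.25 and rho = 0.19 (permutation p = 0.308 and 0.441, adjusted over 3 relations 0.458 and 0.661), and r = 0.38 without PLCβ1a heart 9 and PLCβ1b heart 16, the 2 farthest in Nfat5. Within groups r was 0.18 in blank hearts, 0.32 in those with PLCβ1a and -0.44 in those with PLCβ1b.

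Upstream of both enzymes stand the calmodulins. Of 11 calmodulin, CaMK kinase and CaMKII inhibitor genes 8 were tested and 0 were called against blank in either comparison (edgeR). In PLCβ1b hearts 1 of the 8 lay below blank without overlap in CPM, against 0.48% of all genes separated. Calm2 had the highest level of the list in blank hearts, 29.6 ± 1.87 FPKM (SD, n = 6). The neuronal kinase gene Camk4 had at most 7 counts in a heart.

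Among 10 tested calcineurin regulators and anchors, Rcan1 included, 0 were called against blank (edgeR). The Z-disc protein gene Myoz2, which encodes calsarcin-1, had the highest level at 289 ± 24.02 FPKM in blank hearts (SD, n = 6). Akap5, whose product anchors calcineurin and PKA at membranes, had the lowest p for PLCβ1b. It was at 2.25 to 4.03 CPM in blank and 3.77 to 5.13 CPM in PLCβ1b hearts, and 5 of 6 PLCβ1b hearts lay above every blank heart. Its log2 fold change was 0.43 ± 0.12 (SE, FDR = 0.235 by edgeR) for PLCβ1b and 0.15 ± 0.13 (SE, FDR = 0.784) for PLCβ1a. Chp1, which encodes a calcineurin B homologous protein, had a log2 fold change of -0.16 ± 0.057 (SE, FDR = 0.375 by edgeR) for PLCβ1a. For PLCβ1b the Chp1 value was -0.12 ± 0.057 (SE, FDR = 0.666 by edgeR), in the same direction. Of 13 NFAT kinases and partners, all tested, 0 were called. Csnk1a1, a kinase gene of the casein kinase 1 family, had the highest level at 44.0 ± 2.11 FPKM in blank hearts (SD, n = 6). The transcription factor gene Mef2d had a log2 fold change of 0.16 ± 0.054 (SE, FDR = 0.341 by edgeR) for PLCβ1a and 0.10 ± 0.054 (SE, FDR = 0.701) for PLCβ1b. Hdac5, a CaMKII-regulated histone deacetylase gene, had 0.12 ± 0.062 (SE, FDR = 0.686 by edgeR) for PLCβ1b and -0.012 ± 0.062 (SE, FDR = 0.977) for PLCβ1a.

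The one call among the listed genes fell on a CaMKII substrate. Cacna1c, which encodes the pore of the L-type calcium channel, was at 151 to 162 CPM with a median of 159 in blank hearts, 164 to 197 with a median of 179 in PLCβ1a hearts and 165 to 192 with a median of 178 in PLCβ1b hearts. Both PLC groups lay wholly above blank. Separation without overlap in CPM was found for 0.594% of all genes between PLCβ1a and blank and for 0.48% between PLCβ1b and blank. It rose in PLCβ1a hearts, with a log2 fold change of 0.22 ± 0.043 (SE, FDR = 0.0386 by edgeR). In PLCβ1b hearts the log2 fold change was 0.18 ± 0.043 (SE, FDR = 0.115 by edgeR), which did not pass, and the groups differed by -0.034 (FDR = 0.99994). On the FPKM scale with limma the PLCβ1a value did not pass (FDR = 0.422 with a pseudocount of 0.1), nor did it without blank heart 34 (FDR = 0.157 by edgeR) or PLCβ1a heart 11 (FDR = 0.124). The PLCβ1b value passed by DESeq2 (FDR = 0.0646), with no filter on low counts (FDR = 0.0334 by edgeR), with only the groups compared (FDR = 0.0846 by edgeR) and without PLCβ1b heart 8 or 16 or PLCβ1a heart 9 or 21 (lowest FDR of these 0.0611 by edgeR). Of the 6 genes of this list, all tested, the other 5 were not called. Atp2a2, the sarcoplasmic reticulum calcium pump gene, had log2 fold changes of -0.048 and -0.021 for PLCβ1b and PLCβ1a. Cacnb2, which encodes a β subunit of the L-type calcium channel, is named here after its values were seen. It was at 37.6 to 44.02 CPM in blank hearts, 37.1 to 43.7 in those with PLCβ1a and 33.9 to 37.02 in those with PLCβ1b. All 6 PLCβ1b hearts thus lay below every other heart, while the remaining groups overlapped. Such separation was found for 0.48% of all genes between PLCβ1b and blank and for 0.179% between PLCβ1b and PLCβ1a. The log2 fold change of Cacnb2 was -0.18 ± 0.048 (SE, unadjusted p = 0.00071, FDR = 0.196 by edgeR) for PLCβ1b against blank and -0.16 ± 0.048 (SE, unadjusted p = 0.0021, FDR = 0.971 by edgeR) against PLCβ1a, neither of which passed.

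Hypertrophy marker genes gave 0 calls among 6 tested of 7 listed (edgeR), with medians of 0.084 and 0.030 on the log2 scale for PLCβ1b and PLCβ1a. Myh7, the β-myosin heavy chain gene, ranged from 26.1 to 49.6 CPM in blank hearts, 22.2 to 68.7 in those with PLCβ1a and 22.6 to 81.1 in those with PLCβ1b, and shares sequence with its neighbour Myh6. Trpc1, a cation channel gene, had a log2 fold change of 0.22 ± 0.11 (SE, FDR = 0.673 by edgeR) for PLCβ1b. Of the 12 immediate early genes, all tested, 0 were called, while all 12 had a positive log2 fold change in both comparisons with blank, with medians of 0.47 and 0.63. Of all genes 49.6% and 49.4% were positive. The 12 were measured in the same hearts and are not 12 separate observations. Their mean log2 CPM was highest in PLCβ1a heart 7 (4.36) and PLCβ1b hearts 16 and 6 (3.66 and 3.43), where blank hearts had 1.94 to 2.73. Egr2 was at 0.224 to 0.750 CPM in blank hearts, 0.385 to 10.4 in those with PLCβ1a and 0.394 to 8.54 in those with PLCβ1b. Its log2 fold change for PLCβ1b was 2.04 ± 1.17 (SE, FDR = 0.749 by edgeR), and 0.83 without PLCβ1b heart 16. For PLCβ1a the Egr2 value was 2.53 ± 1.09 (SE, FDR = 0.529 by edgeR). Fosb had a log2 fold change of 1.62 ± 0.62 (SE, FDR = 0.474 by edgeR) for PLCβ1a, and 0.91 without PLCβ1a heart 7. Dusp1 was the highest of the list in blank hearts at 12.7 ± 1.98 FPKM (SD, n = 6). Over all 63 tested genes of the lists other than the 10, 0 were called for PLCβ1b and 1 for PLCβ1a, with median log2 fold changes of 0.049 and 0.022. At an unadjusted p under 0.05, 5 of the 63 passed for PLCβ1b, 3 of them higher, and 9 for PLCβ1a, 7 of them higher, against 7.41% and 8.58% of all genes. Of the 9 for PLCβ1a, 5 were immediate early genes, all higher.

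**Figure D5:**
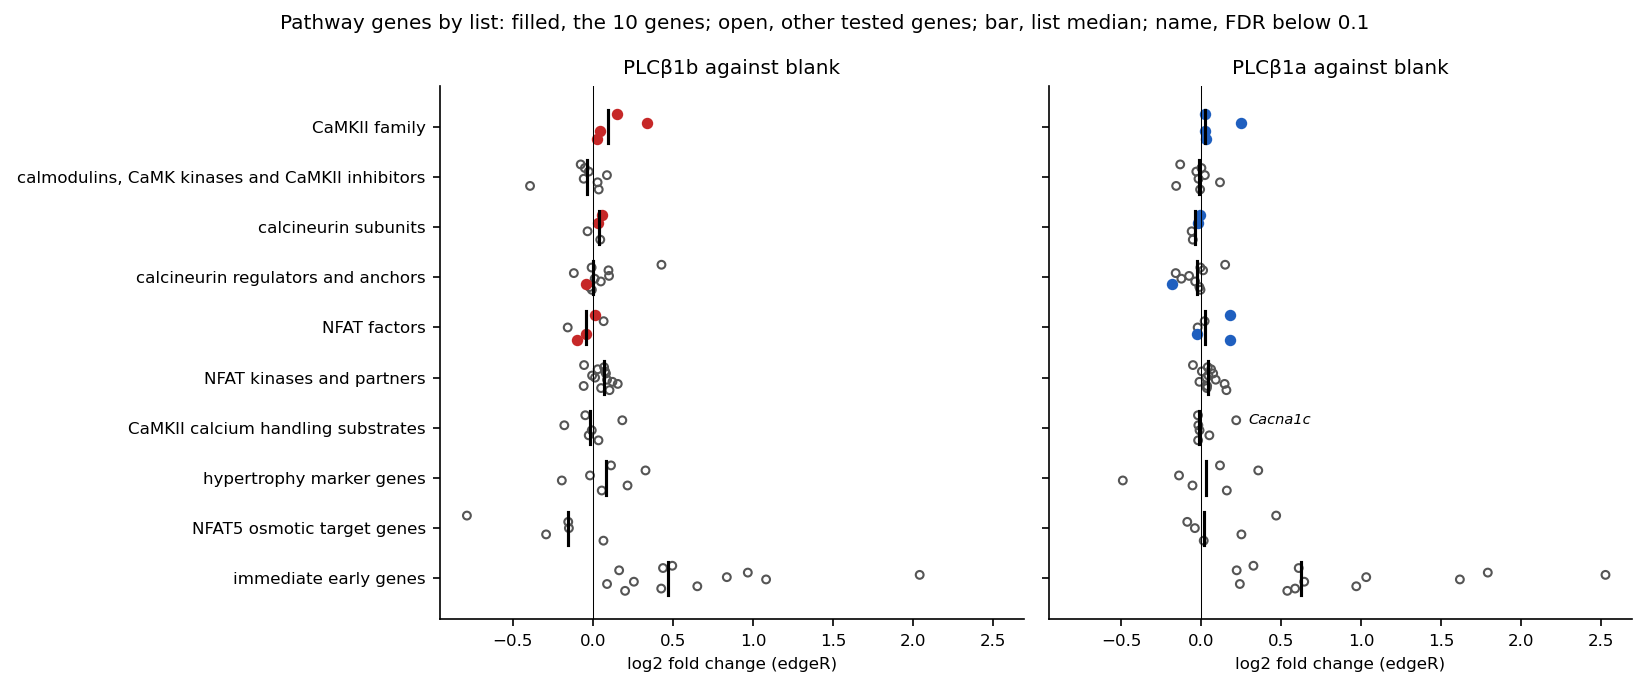
Log2 fold changes (horizontal axis, edgeR) of the tested genes of 10 lists for PLCβ1b against blank (left) and PLCβ1a against blank (right), with filled points for the 10 genes described, open points for the others and a bar at each list's median. Cacna1c, labelled, is the only gene with an FDR below 0.1, and the immediate early genes all lie to the right of 0.

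Outside Rcan1, the gene with the closest pattern over the 18 hearts was Slc36a1 for Camk2a (r = 0.79), Aqp7 for Camk2b (r = 0.82), Cox6a2 for Camk2d (r = 0.87), Strip2 for Camk2g (r = 0.86), Trim3 for Ppp3ca (r = 0.76), Rps15a-ps4 for Ppp3cb (r = 0.77), Spp1 for Nfatc3 (r = 0.91), Eif2b3 for Nfatc4 (r = 0.80) and Cit for Nfat5 (r = 0.83). Spp1 had only 3 to 20 counts in a heart and Cit 8 to 24. For Nfat5 and Cit, r fell to 0.45 once group means were removed. Each is the highest of 12280 correlations and is a description without a test. Between the 10 genes themselves the highest r were 0.63 for Camk2d with Camk2g and 0.61 for Camk2d with Ppp3cb, and the lowest was -0.48 for Camk2a with Rcan1.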

How the data were processed

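Total RNA of mouse hearts was depleted of ribosomal RNA by the authors, sequenced as strand-specific paired reads of 76 nt, aligned with TopHat to mm10 and counted per gene with HTSeq. The submitters' processing notes also name TopHat2 2.0.10 and Cufflinks 2.1. The deposited tables hold raw counts (23457 genes) and FPKM (23396 genes), whose program is not given in the sources used here. Groups came from the sample labels.

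Counts were scaled by TMM and fitted under R 4.3.3 by the quasi-likelihood F test of edgeR 4.0.16, with a robust prior, in one model of the 3 groups of 6 hearts. Genes were kept by filterByExpr (minimum count 10, minimum total 15), which left 12281. P-values were adjusted over all of these by Benjamini-Hochberg (FDR), and genes with an FDR below 0.1 were called. Log2 CPM used a prior count of 2. Exact permutation tests (two-sided, 924 arrangements) compared single values, and relations across hearts used 100000 permutations. In simulated counts for PLCβ1b against blank over 12281 genes, the fit recovered 67% of 100 genes changed 1.3-fold and 96% of 100 changed 2-fold. Of the simulated calls 8.43% were false. Counts were drawn with the spread that edgeR's trend gives genes of that level, not with each gene's own. Recovery was thus not estimated for widely spread genes such as Rcan1, nor for changes below 1.3-fold.

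The 10 genes, the pathway lists and the tests were chosen with earlier results of these data known. Named genes are the 10, Plcb1, every listed gene called, the gene of each list with the highest FPKM in blank hearts or the lowest p against blank, and the genes most correlated with each of the 10 (3 for Rcan1, 1 for each other). Some genes that this rule names are not reported here, and Camk4, Cacnb2, Ppp3cc, Ppp3r2, Nfatc1, Snap25 and Th were named outside it, after their values were seen. Alternatives were DESeq2 1.42.0, edgeR's exact test, limma 3.58.1 on log2 FPKM, other scalings and filters, and leaving out each heart. Sequences came from RefSeq (GRCm38.p6).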

Additional observations from a re-analysis of the deposited data

How the results depend on the processing

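For PLCβ1b against blank, 12 genes were called. DESeq2 called 24, edgeR's exact test 22, no filter on low counts 24, a mean of at least 3 FPKM 7, limma on log2(FPKM + 0.1) 4, limma on log2(FPKM + 1) 5 and an FDR below 0.05 called 7. With each heart left out the count ran from 2 to 18, under 8 without blank heart 34 or PLCβ1b heart 4, 6 or 17. For PLCβ1a against blank (17 genes) the same settings gave 33, 45, 29, 7, 6, 6 and 4. The fit without robust estimation, an alternative chosen after seeing the data, and only the groups compared gave 10 each, and with each heart left out the count ran from 3 to 19, at most 10 when blank heart 32, 34 or 36, or PLCβ1a heart 7, 11 or 14, was omitted. Of the calls for PLCβ1b 75.0% were higher, against 1 of 4 and 1 of 5 by limma and 58.3% without robust estimation; for PLCβ1a the shares were 70.6%, 16.7%, 16.7% and 60.0%, with 48.5% by DESeq2. For PLCβ1b against PLCβ1a (0 genes, 543 at an unadjusted p under 0.05), DESeq2 gave 1, the exact test 2, no robust estimation 1 and limma 1 with either pseudocount, and with each heart left out 0 to 1 (1 without PLCβ1a heart 14 or PLCβ1b heart 8). Of the 10 genes, DESeq2 and the exact test each called 1, Nfat5 for PLCβ1a.

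Of 540 fold changes of the 10 genes with a heart left out, 519 kept sign and call and 21 changed sign, in 9 of 30 results. Of 318 under other settings 303 kept both, 13 changed sign and 2 passed the threshold. Under limma (pseudocounts 0.1 and 1) the log2 fold change for PLCβ1b was 0.030 and 0.023 for Rcan1 and -0.026 and -0.019 for Nfat5. For PLCβ1a it was -0.0028 and -0.0043 for Camk2a, -0.00039 and -0.00051 for Camk2g, and -0.00023 with the first pseudocount for Nfatc4. Ppp3ca for PLCβ1a was 0.0040 with a mean of at least 3 FPKM. Camk2g for PLCβ1b against PLCβ1a was 0.0013 with upper-quartile scaling and 0.010 and 0.0093 by limma. On log2(FPKM + 1) the PLCβ1b values became 0.17 for Akap5, -0.096 for Nfatc2, 0.12 for Trpc1 and 0.45 for Egr2, the PLCβ1a values 0.14 for Slc5a3 and 0.22 for Fosb, and Slc5a3 between the PLC groups -0.33. Egr2 and Fosb were at 1.078 and 0.79 on log2(FPKM + 0.1). The cause was not tested for any of these.

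With single hearts left out, PLCβ1b against blank ran from -0.0035 to 0.068 for Camk2g (negative without PLCβ1b heart 6) and from -0.15 to 0.25 for Rcan1. PLCβ1a against blank ran from -0.29 to 0.11 for Rcan1, -0.026 to 0.068 for Camk2a (negative without blank heart 26 or 30), -0.031 to 0.020 for Ppp3ca (positive when blank heart 26 or 32, or PLCβ1a heart 7, 13 or 21, was omitted), -0.043 to 0.0039 for Ppp3cb (positive without PLCβ1a heart 13) and -0.061 to 0.0063 for Nfatc3 (positive without PLCβ1a heart 9 or 21). PLCβ1b against PLCβ1a ran from -0.043 to 0.043 for Camk2g (positive when PLCβ1a heart 9, 11, 14 or 21, or PLCβ1b heart 8 or 16, was omitted) and from -0.053 to 0.016 for Nfatc3 (positive without PLCβ1a heart 14). Nfat5 for PLCβ1a ran from 0.17 to 0.19, with an FDR from 0.111 to 0.301. For PLCβ1b, Nfatc2 was -0.10 without PLCβ1b heart 8 and Trpc1 0.14 without PLCβ1b heart 17. The correlation of Rcan1 with immediate early genes ran from -0.33 to 0.14, that of Rcan1 with hypertrophy genes became 0.54 (permutation p = 0.0241) on log2(FPKM + 0.1), and that of Nfat5 with osmotic targets became -0.068 with group means removed.

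On counts per kilobase of merged exon the shares of Camk2a, Ppp3cb, Nfatc3 and Nfat5 over 18 hearts were 7.12%, 35.0%, 38.8% and 31.5%.

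No paired analysis was possible because the groups share no mouse numbers. Nfatc4 and Camk2b, with at most 50 and 96 counts in a heart, are limited by depth. The groups also differ in their label numbers. Mouse numbers were 26 to 36 in blank hearts and 4 to 21 in the PLC groups, and the sample labels are numbered group by group. In comparisons with blank, vector cannot be told apart from mouse number, and in every comparison it cannot be told apart from sample order. Injection or harvest days are not given in the sources used here.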
